A study of Arabidopsis thaliana with 33 samples.

Results

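The 9 Arabidopsis thaliana loci described here mark the boundary between a shoot meristem and its organs or promote shoot regeneration. They were taken by locus from the 33400 loci counted: the NAC transcription factors CUC1 (AT3G15170), CUC2 (AT5G53950) and CUC3 (AT1G76420), the ALOG family genes LSH4 (AT3G23290) and LSH3 (AT2G31160), the AP2/ERF factors ESR1 (AT1G12980) and ESR2 (AT1G24590), the GRAS factor LAS (AT1G55580) and the MYB factor LOF1 (AT1G26780). The rule lists them by locus with no threshold on a measured value, but the list was drawn up with earlier results of these data known.

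As background, an explant on an auxin-rich callus-inducing medium (CIM) forms a callus whose cells resemble those of a young lateral root, and a later cytokinin-rich shoot-inducing medium (SIM) lets part of that callus form shoot meristems. CUC1, CUC2 and CUC3 act where a new organ separates from the meristem, and CUC1 and CUC2 are needed for the meristem gene STM to come on. LSH3 and LSH4 encode nuclear proteins of the boundary and are known direct targets of CUC1. ESR1 and ESR2 promote shoot formation when overexpressed, and ESR2 activates CUC1. LAS and LOF1 act in boundaries where axillary meristems arise. HY5 is a bZIP factor of the light pathway that binds ACGT-containing sequences.

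The 33 RNA-seq libraries came from hypocotyl explants in 11 groups of 3 biological replicates. Explants were cut from 7-day-old seedlings raised in low light (2 µmol/m2/s) at 22 °C, and this time is called T0. They then spent 4 days on CIM (the auxin 2,4-D at 0.5 mg/L, the cytokinin kinetin at 0.1 mg/L), followed by SIM (the auxin IAA at 0.15 mg/L, the cytokinin 2-iP at 0.5 mg/L), sampled at 4 and 8 days. Wild-type Col-0 was sampled at T0 in low light and at each later time both in low light and in high light (40 µmol/m2/s). The hy5-2 mutant, which carries a mutation of HY5 in all its cells, was sampled at T0 in low light and later only in high light. A mutant culture in low light was not analysed here, so a comparison of light with light exists for Col-0 alone. Medium, time in culture and, for hy5-2, light change together after T0 and cannot be told apart.

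Libraries held 7235763 to 21184356 counts (median 10062479), and log2 levels of replicates correlated at 0.985 to 0.994 across genes. HY5 itself stood at 1.86 to 3.74 CPM (the count scaled to a common library size, with TMM factors) in the 12 hy5-2 libraries and at 6.53 to 47.5 CPM in the 21 Col-0 libraries, with no overlap. The tissue is bulk, so fewer cells that carry a transcript and less transcript per cell cannot be told apart in any value below. Of the 9 loci, 8 held enough counts to be tested and LOF1 (81 counts in all libraries) did not. ESR2 (74 counts) reached the filter's cutoff in 3 libraries, all of Col-0 in high light after 8 days on SIM, so it was tested only through the group where it is high. CUC3 reached that cutoff in 8 libraries, those of T0 and some of Col-0 in high light after 8 days on SIM. It was thus also tested through groups where it is high. ESR2 and, outside T0, CUC3 (219 counts in all) were close to the limit of detection, so their tests rest on few reads.

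CUC1 and CUC2 differ from CUC3 in a regulatory site, and the site is shown because it separates these close relatives at the sequence level. The microRNA miR164 pairs with the coding sequence of CUC1 and CUC2, and its guide strand from MIR164A (chr2:19520770-19520790, plus strand, RefSeq assembly TAIR10.1) is printed with its seed, bases 2 to 8, in capitals. The sites are the windows of the RefSeq coding sequence with the fewest mismatches to it, and their capitals mark bases that pair by Watson-Crick rules.
miR164a: tGGAGAAGcagggcacgtgca
CUC1 site, chr3:5111137-5111157, plus strand: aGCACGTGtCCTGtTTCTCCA
CUC2 site, chr5:21902301-21902321, minus strand: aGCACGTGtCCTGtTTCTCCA
CUC3 best window, chr1:28672053-28672073, minus strand: caCAtGctaCtaGaTTCTCCA
The CUC1 and CUC2 sites were identical, each with 3 mismatches, whereas the best CUC3 window had 9. MIR164B gave the same mature sequence as MIR164A, and MIR164C did not. Over whole exons, with these sites left in, the longest exact shared run was 22 bases for CUC1 and CUC2. It was 23 for CUC1 and CUC3, 20 for CUC2 and CUC3, 12 for LSH3 and LSH4 and 23 for ESR1 and ESR2.

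The 300 bases before the RefSeq gene start (TAIR10.1) are printed for the 3 loci whose levels rose with light on SIM, LSH4, CUC1 and ESR2, with any ACGT, which is its own reverse complement, in capitals.
LSH4, chr3:8326328-8326627, plus strand: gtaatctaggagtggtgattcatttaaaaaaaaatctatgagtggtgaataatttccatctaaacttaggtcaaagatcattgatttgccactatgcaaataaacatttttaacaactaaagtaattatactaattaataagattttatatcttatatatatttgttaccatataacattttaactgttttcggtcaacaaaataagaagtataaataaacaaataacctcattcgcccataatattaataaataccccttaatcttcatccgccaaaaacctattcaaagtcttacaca
CUC1, chr3:5109482-5109781, plus strand: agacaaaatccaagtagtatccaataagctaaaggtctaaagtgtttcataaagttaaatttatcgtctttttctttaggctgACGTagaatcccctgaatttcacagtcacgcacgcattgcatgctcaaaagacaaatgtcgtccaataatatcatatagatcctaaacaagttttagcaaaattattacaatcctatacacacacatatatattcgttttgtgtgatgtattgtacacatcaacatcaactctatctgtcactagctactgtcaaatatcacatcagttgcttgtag
ESR2, chr1:8715379-8715678, minus strand: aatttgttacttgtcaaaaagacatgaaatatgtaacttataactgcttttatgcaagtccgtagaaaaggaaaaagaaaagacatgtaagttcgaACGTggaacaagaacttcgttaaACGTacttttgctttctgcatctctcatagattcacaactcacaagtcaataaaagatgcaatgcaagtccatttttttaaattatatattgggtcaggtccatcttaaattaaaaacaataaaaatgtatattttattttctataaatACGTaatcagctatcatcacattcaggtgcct
Both strands were searched in all 9 windows. The core ACGT was in 6 of 9 windows and in 49.0% of the windows of all protein-coding genes, and it lies within each of the longer motifs. In CUC1 it lay 217 bases before the start, in ESR2 204, 181 and 32 bases before, and in LSH4 no match was found. The G-box CACGTG was in 0 of 9 windows and in 7.09% of the windows of 27443 protein-coding genes. The shorter CACGT, which lies within the G-box, was in 3 of 9 (ESR2, LAS and LOF1) and in 25.6% of all genes, and GACGTC was in 0 of 9 and in 2.61%. The match in ESR2 lay 204 bases before the start, that in LAS 41 and that in LOF1 55. The LSH4 window holds none of these motifs and the CUC1 window only the core, which says nothing of binding elsewhere.

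**Figure D1:**
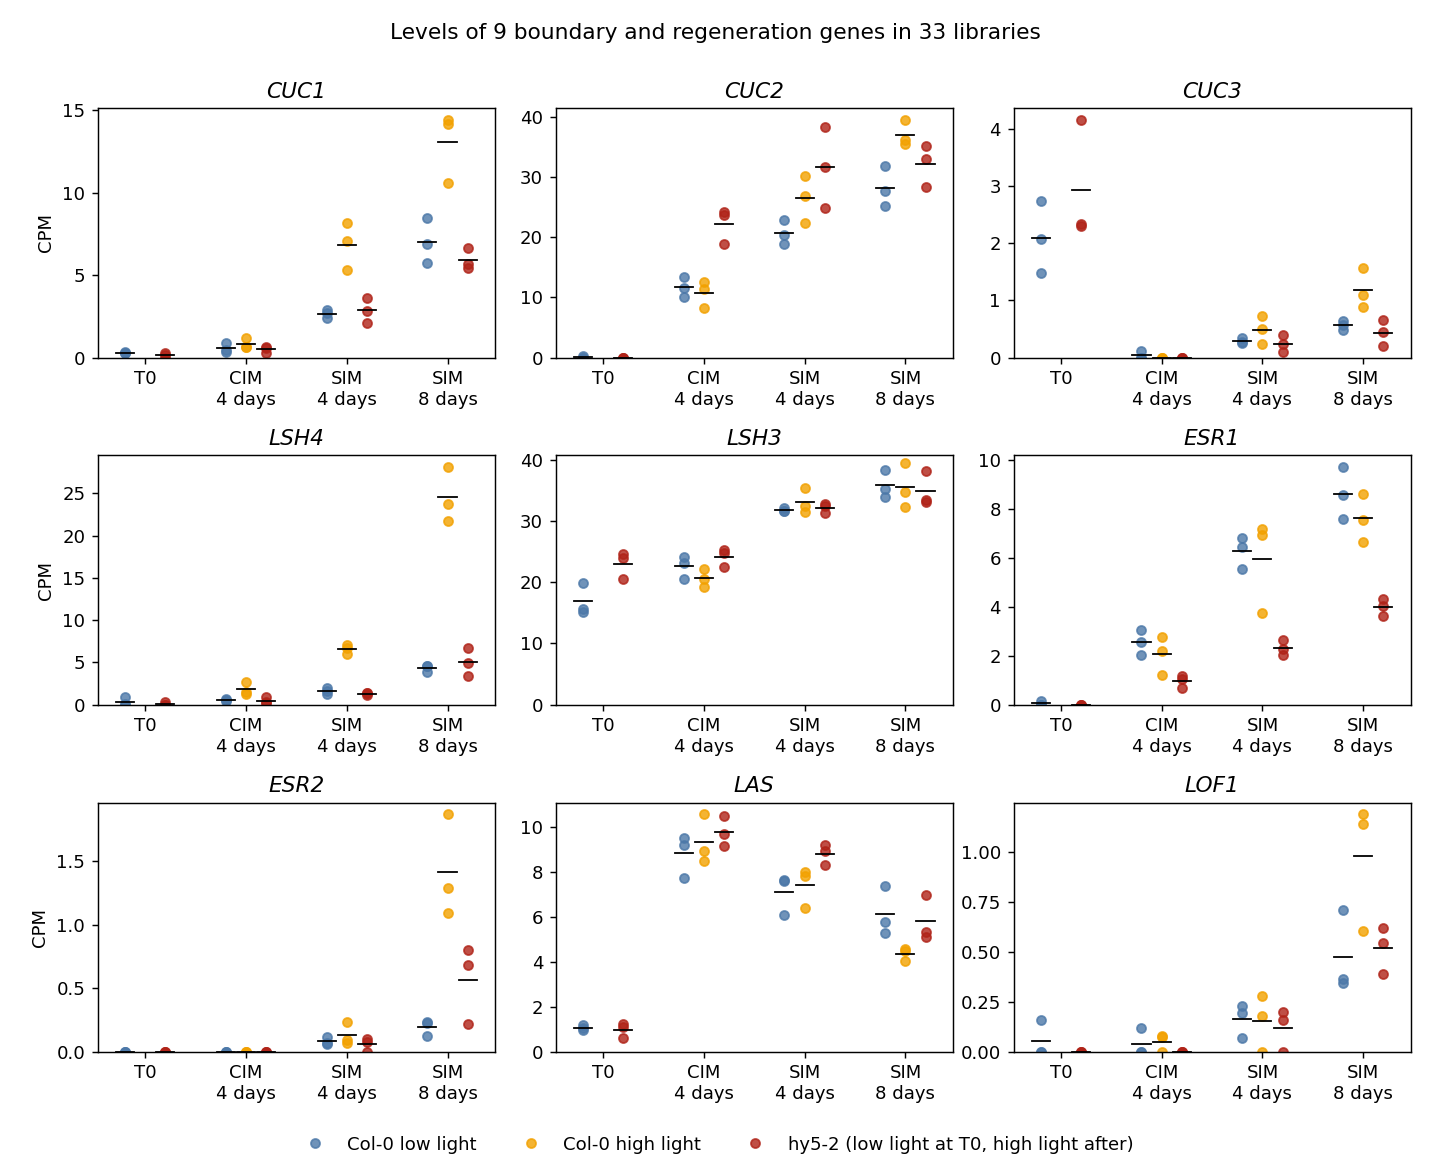
Level of each of the 9 loci in CPM (linear axis, one scale per gene) in each of the 33 libraries, by time and medium. Points are libraries and bars are means of 3. CUC1, LSH4 and ESR2 stand apart in Col-0 high light after 8 days on SIM, ESR1 is lowest in hy5-2 at each culture time, and LSH3 changes little between light or genotype in culture.

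Per kilobase of exon, LSH3 was the highest of the 9 in every group, with a group mean of 38.3 CPM per kb in Col-0 after 8 days on SIM in low light and 24.7 in hy5-2 at T0. CUC3 was next at T0 (1.90 CPM per kb in Col-0 and 2.65 in hy5-2), and CUC2 was next in every culture group. The order below these depended on light. In Col-0 at 8 days on SIM, LSH4 came next after CUC2 in high light, at 29.2 CPM per kb against 32.0, but in low light stood at 5.16, below CUC1 and ESR1. ESR2, CUC3 and LOF1 were the lowest 3 in all SIM groups, at 1.54 CPM per kb or less.

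CUC1 was nearly silent before SIM and rose on SIM, and at both SIM times it stood higher in high light. Its levels at T0 were 0.269, 0.261 and 0.318 CPM in replicates 1, 2 and 3 of Col-0 and 0.138, 0.307 and 0 in hy5-2. After 4 days on CIM they were 0.350, 0.858 and 0.455 in Col-0 low light, 0.628, 1.19 and 0.651 in Col-0 high light and 0.658, 0.565 and 0.254 in hy5-2. These 3 CIM groups overlapped. At 4 days on SIM the libraries held 2.43, 2.68 and 2.90 CPM in Col-0 low light, 5.30, 7.06 and 8.17 in Col-0 high light and 2.12, 3.63 and 2.83 in hy5-2. After 8 days they held 6.89, 8.45 and 5.76, then 10.6, 14.4 and 14.2, then 5.42, 6.66 and 5.68 in the same order. At both SIM times the high-light Col-0 libraries lay above all others of that time, and hy5-2 overlapped Col-0 in low light. Against low light, CUC1 rose by a log2 fold change of 1.38 ± 0.21 (SE) at 4 days (edgeR quasi-likelihood test, adjusted p = 1e-05) and by 0.88 ± 0.19 at 8 days (adjusted p = 0.000515). In hy5-2 against Col-0 in high light it fell by 1.32 ± 0.22 (adjusted p = 2.19e-05) and by 1.15 ± 0.19 (adjusted p = 2.18e-05). The difference at CIM did not pass in either comparison (log2 fold change 0.57 ± 0.44, adjusted p = 0.555 for light, and -0.78 ± 0.42, adjusted p = 0.224 for genotype). The light effect at 4 days on SIM minus that on CIM was 0.80 ± 0.52 (adjusted p = 0.614), and at 8 days minus 4 days -0.50 ± 0.29 (adjusted p = 0.484). In order of mean level, Col-0 high light at 8 days stood alone at the top (13.1 ± 2.17 CPM, SD), then came Col-0 low light at 8 days, Col-0 high light at 4 days and hy5-2 at 8 days, whose neighbours overlapped, from 7.04 to 5.92 CPM.

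CUC2 was off at T0, already high on CIM and higher on SIM, and it was the only one of the 9 that was higher in hy5-2 than in Col-0 in culture by the test. Col-0 at T0 held 0, 0 and 2 counts and hy5-2 held 0 in all 3. After 4 days on CIM the levels were 11.6, 10.1 and 13.4 CPM in Col-0 low light, 8.16, 12.6 and 11.4 in Col-0 high light and 18.8, 24.2 and 23.7 in hy5-2. The mutant libraries lay above all 6 wild-type libraries at this time. At the earlier SIM time, 4 days, the levels were 20.3, 18.8 and 22.9 CPM, 22.4, 26.8 and 30.2 CPM, and 24.8, 31.7 and 38.3 CPM in the same order of groups. After 8 days they were 31.8, 27.6 and 25.1, then 39.4, 36.1 and 35.5, then in hy5-2 between 28.3 and 35.1 (mean 32.2 ± 3.47, SD). Here only Col-0 high light stood clear of its neighbours in rank, and hy5-2 overlapped Col-0 low light. From T0 to CIM, CUC2 rose in Col-0 low light with a ratio of 126 (95% counting interval 34.7 to 1050, edgeR adjusted p = 3.12e-12), and in hy5-2 it was at least 169-fold higher against a floor of 3 counts over the T0 group (adjusted p = 2.01e-15). In hy5-2 against Col-0 in high light it was higher on CIM by a log2 fold change of 1.04 ± 0.16 (adjusted p = 3.28e-05), did not pass at 4 days on SIM (0.23 ± 0.15, adjusted p = 0.344) and stood at -0.20 ± 0.15 (adjusted p = 0.358) at 8 days.

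The CUC2 genotype effect differed between CIM and 4 days on SIM by -0.82 ± 0.22 (edgeR adjusted p = 0.0197). That call did not hold in a fit of the compared groups alone (adjusted p = 0.0729) or without Col-0 CIM replicate 1 (adjusted p = 0.0667), Col-0 SIM replicate 3 (0.0730), hy5-2 CIM replicate 2 (0.0543) or 3 (0.0558), or hy5-2 SIM replicate 1 (0.0559), with log2 values from -0.98 to -0.66 over all alternatives. High against low light in Col-0 did not pass for CUC2 at any time: -0.12 ± 0.18 (adjusted p = 0.815) on CIM, 0.38 ± 0.15 (adjusted p = 0.106) at 4 days on SIM and 0.40 ± 0.15 (adjusted p = 0.0526) at 8 days. The last value passed without Col-0 low-light replicate 1 (adjusted p = 0.0359), in a fit of the compared groups alone (0.0131) and with the replicate number as a block (0.0251). Within Col-0, CUC2 rose from 4 to 8 days on SIM in high light by 0.46 ± 0.15 (adjusted p = 0.0235), a call lost without SIM day 4 replicate 1 (0.106) or 2 (0.0575) or day 8 replicate 1 (0.0868). In low light the same step was 0.44 ± 0.16 (adjusted p = 0.0546), and 0.46 (adjusted p = 0.0199) with the replicate number as a block, in a pair of groups whose same-numbered libraries deviated together, and it passed in a fit of those groups alone (adjusted p = 0.0195).

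CUC3 ran opposite to CUC2 from T0 to CIM only. It was present at T0, lost on CIM and partly regained on SIM, where CUC2 rose too. T0 libraries held 1.48, 2.74 and 2.07 CPM in Col-0 and 4.15, 2.30 and 2.34 CPM in hy5-2, which overlap. On CIM, all 6 high-light libraries of both genotypes had 0 counts, which allows up to 3 counts in each group, and the 3 low-light libraries held 1 count in all. After 4 days on SIM the levels were 0.347, 0.268 and 0.258 CPM in Col-0 low light, 0.236, 0.494 and 0.722 in Col-0 high light and 0.235, 0.392 and 0.101 in hy5-2. After 8 days they were 0.484, 0.632 and 0.576, then 1.09, 0.893 and 1.56, then 0.444, 0.655 and 0.196. At 8 days the high-light Col-0 libraries lay above the other 6, which overlapped, and all 9 lay below every T0 library except the lowest of Col-0 at T0, which one of them exceeded. The fall from T0 to CIM was 67.8-fold in Col-0 low light by the ratio of counts (95% counting interval 11.6 to 2740, edgeR adjusted p = 2.35e-08) and at least 42.2-fold in hy5-2 (adjusted p = 4.87e-11). Both tests favour the T0 groups, through which CUC3 passed the filter. From CIM to 4 days on SIM CUC3 became at least 7.75-fold higher in Col-0 high light (adjusted p = 3.3e-05) and at least 3.54-fold higher in hy5-2 (adjusted p = 0.00284). In hy5-2 against Col-0 in high light at 8 days CUC3 fell by 1.45 ± 0.48 on the log2 scale (adjusted p = 0.0255), from 33 counts to 13. That call was lost without Col-0 replicate 3 (adjusted p = 0.133), hy5-2 replicate 1 (0.0635) or hy5-2 replicate 3 (0.127), and in DESeq2 (0.0510). High against low light gave 1.03 ± 0.45 (adjusted p = 0.0933) at that time and did not pass.

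LSH4 rose with light and fell in hy5-2 at all 3 culture times. T0 libraries held 0, 0.131 and 0.955 CPM in Col-0 and 0.277, 0 and 0 in hy5-2. On CIM the levels were 0.467, 0.572 and 0.683 CPM in Col-0 low light, 2.67 and 1.52 in replicates 1 and 2 of Col-0 high light (mean of all 3 1.83 ± 0.734, SD) and 0.877, 0.212 and 0.318 in hy5-2. High-light Col-0 lay above the other 2 groups, which overlapped. After 4 days on SIM the levels were 1.97, 1.61 and 1.29 CPM, then 6.72, 7.06 and 5.96, then 1.33, 1.18 and 1.42 in the same order. After 8 days they were 3.87, 4.58 and 4.61, then 28.1, 21.8 and 23.8, then 6.75, 4.91 and 3.43. At each SIM time the 3 high-light Col-0 libraries stood apart from the 6 others, and hy5-2 overlapped low-light Col-0. Against low light, LSH4 rose by a log2 fold change of 1.60 ± 0.45 (edgeR adjusted p = 0.0193) on CIM, 2.05 ± 0.29 (adjusted p = 1.63e-06) at 4 days on SIM and 2.48 ± 0.23 (adjusted p = 2.63e-10) at 8 days. The CIM call was lost without high-light replicate 1 (adjusted p = 0.144) or without low-light replicate 1 (0.0687), 2 (0.0718) or 3 (0.0576). In hy5-2 it fell by 1.95 ± 0.44 (adjusted p = 0.00175), 2.31 ± 0.31 (adjusted p = 4.85e-07) and 2.27 ± 0.22 (adjusted p = 1.07e-09) at these times. The growth of the light effect between neighbouring times did not pass (0.44 ± 0.60, adjusted p = 0.872, from CIM to 4 days on SIM, and 0.44 ± 0.39, adjusted p = 0.731, from 4 to 8 days). LSH4 rose from 4 to 8 days on SIM in all 3 series, by 1.47 ± 0.32 (adjusted p = 0.000876) in Col-0 low light, 1.91 ± 0.21 (adjusted p = 3.2e-08) in Col-0 high light and 1.94 ± 0.33 (adjusted p = 3.54e-05) in hy5-2.

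LSH3, the relative of LSH4, was high everywhere and did not pass for light at any time or for genotype in culture. At T0 its levels were 19.8, 15.7 and 15.1 CPM in Col-0 and 24.6, 23.9 and 20.6 CPM in hy5-2. The 2 T0 groups did not overlap, and LSH3 was higher in hy5-2 by a log2 fold change of 0.44 ± 0.11 (edgeR adjusted p = 0.0112). That call was lost without Col-0 replicate 2 (adjusted p = 0.112) or 3 (0.0905) or hy5-2 replicate 1 (0.0844), and in a fit of the compared groups alone (0.0542). On CIM the 9 libraries lay between 19.2 and 25.3 CPM, at 4 days on SIM between 31.3 and 35.4 and at 8 days between 32.3 and 39.5, and in each the groups overlapped except hy5-2 above high-light Col-0 on CIM. High against low light gave log2 fold changes of -0.13, 0.06 and -0.01 at the 3 culture times, with intervals of 2 SE either side from -0.31 to 0.05, -0.10 to 0.22 and -0.19 to 0.17. Genotype gave 0.23 ± 0.09 (adjusted p = 0.0831) on CIM, -0.05 ± 0.09 (adjusted p = 0.786) and -0.02 ± 0.09 (adjusted p = 0.894) on SIM. The step from CIM to SIM raised LSH3 in all 3 series, by 0.51 ± 0.09 (adjusted p = 2.05e-05) in Col-0 low light, 0.69 ± 0.09 (adjusted p = 4.65e-08) in high light and 0.41 ± 0.09 (adjusted p = 0.00016) in hy5-2.

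ESR1 was lower in the mutant at every culture time but did not pass for light in Col-0. T0 libraries held 1 count in Col-0 and 0 in hy5-2. On CIM the levels were 2.57, 3.05 and 2.05 CPM in Col-0 low light, 2.20, 2.78 and 1.23 in Col-0 high light and 1.17, 1.06 and 0.699 in hy5-2. After 4 days on SIM they were 5.56, 6.84 and 6.44, then 3.77, 7.20 and 6.95, then 2.27, 2.65 and 2.02 in the same order. The mutant lay below all wild-type libraries of its time on both media, while the 2 wild-type groups overlapped. After 8 days the levels were 8.59, 9.72 and 7.61 CPM, then 6.67, 8.63 and 7.58, then 3.64, 4.04 and 4.31, with the same arrangement. Against high-light Col-0, ESR1 fell in hy5-2 by 1.10 ± 0.31 on the log2 scale (edgeR adjusted p = 0.0131) on CIM, 1.42 ± 0.24 (adjusted p = 2.44e-05) at 4 days on SIM and 0.94 ± 0.22 (adjusted p = 0.00178) at 8 days. The CIM call was lost without Col-0 replicate 2 (adjusted p = 0.138) or hy5-2 replicate 3 (0.103). High against low light gave -0.28 ± 0.27, -0.03 ± 0.20 and -0.18 ± 0.20, with intervals of 2 SE either side from -0.82 to 0.26, -0.43 to 0.37 and -0.58 to 0.22. From CIM to 4 days on SIM ESR1 rose by 1.32 ± 0.24 (adjusted p = 2.27e-05) in Col-0 low light, 1.57 ± 0.23 (adjusted p = 8.76e-07) in high light and 1.25 ± 0.32 (adjusted p = 0.00128) in hy5-2.

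ESR2, the relative of ESR1, appeared late and mainly in high-light Col-0. All 15 T0 and CIM libraries had 0 counts, and at 4 days on SIM each of the 9 libraries had 0, 1 or 2 counts. At 8 days there were 1, 3 and 2 counts in Col-0 low light, 9, 13 and 18 in Col-0 high light and 9, 2 and 7 in hy5-2. These equal 0.121, 0.237 and 0.230 CPM, 1.09, 1.29 and 1.87 CPM, and 0.800, 0.218 and 0.686 CPM. High-light Col-0 lay above the rest, and hy5-2 overlapped low-light Col-0. Against low light ESR2 rose by 2.75 ± 0.52 (edgeR adjusted p = 0.000273), and from 4 to 8 days in high light by 3.54 ± 0.53 (adjusted p = 2.71e-05). Both tests favour the group through which ESR2 passed the filter, and with no filter on low counts they gave adjusted p = 0.000436 and 2.43e-05. In hy5-2 against high-light Col-0 it fell by 1.27 ± 0.42 (adjusted p = 0.0289), a call lost without Col-0 replicate 3 (adjusted p = 0.148) or hy5-2 replicate 2 (0.136), in DESeq2 (0.217), with no filter on low counts (0.0654) and in a fit of the compared groups alone (0.0579).

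LAS was the one member whose group mean was highest on CIM in each series, though its fall from CIM to 4 days on SIM passed only in high-light Col-0. T0 levels were 1.21, 1.04 and 0.955 CPM in Col-0 and 1.25, 0.614 and 1.11 in hy5-2. CIM levels were 9.23, 9.54 and 7.74 CPM in Col-0 low light, 8.48, 8.94 and 10.6 in Col-0 high light and 9.72, 10.5 and 9.15 in hy5-2. These CIM groups overlapped and all lay above T0. At 4 days on SIM the levels were 7.64, 6.11 and 7.60 CPM, then 8.01, 6.42 and 7.85, then 8.93, 8.34 and 9.21 in the same order. At 8 days they were 7.38, 5.77 and 5.30, then 4.49, 4.57 and 4.05, then 5.33, 5.13 and 6.96, with high-light Col-0 below the other 6 libraries. From T0 to CIM, LAS rose by a log2 fold change of 3.01 ± 0.22 (edgeR adjusted p = 5.08e-14) in Col-0 low light and 3.26 ± 0.21 (adjusted p = 2.09e-15) in hy5-2. From CIM to 4 days on SIM the log2 fold change was -0.31 ± 0.14 (adjusted p = 0.0685) in Col-0 low light, -0.33 ± 0.13 (adjusted p = 0.035) in high light and -0.15 ± 0.13 (adjusted p = 0.365) in hy5-2, whose 2 groups overlap. From 4 to 8 days on SIM it fell by 0.76 ± 0.16 (adjusted p = 0.00041) in high-light Col-0 and by 0.60 ± 0.15 (adjusted p = 0.00263) in hy5-2, whereas low-light Col-0 stood at -0.21 ± 0.15 (adjusted p = 0.44). The fall with light at 8 days was 0.48 (log2 fold change -0.48 ± 0.17, adjusted p = 0.0294) and this call was lost without high-light replicate 1 (adjusted p = 0.0567) or 3 (0.113), without low-light replicate 1 (0.185), in DESeq2 (0.0518), with no filter on low counts (0.0592) and in a fit of the compared groups alone (0.0976). The genotype value at that time was 0.41 ± 0.17 (adjusted p = 0.0743).

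LOF1 was not tested. Its libraries held 0 to 1 counts at T0 and on CIM and 0 to 4 counts at 4 days on SIM. At 8 days they held 3, 9 and 3 counts in Col-0 low light (0.363, 0.711 and 0.346 CPM), 5, 12 and 11 in Col-0 high light (0.607, 1.19 and 1.14 CPM) and 7, 5 and 4 in hy5-2 (0.622, 0.546 and 0.392 CPM). The 3 groups overlapped, and LOF1 shares an exact run of 27 bases with its relative LOF2.

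**Figure D2:**
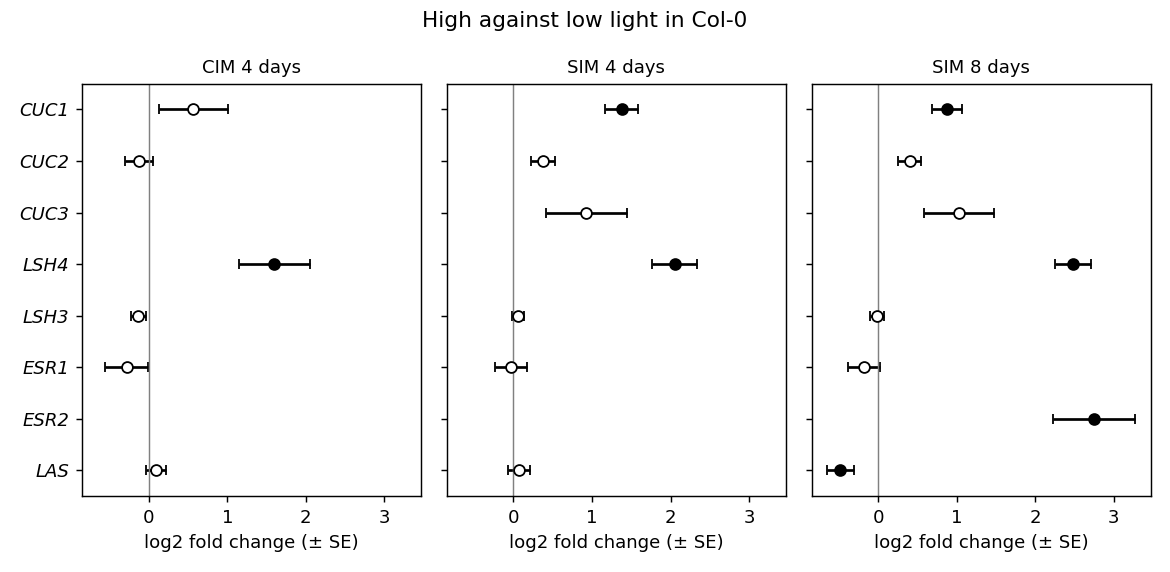
Log2 fold change of high against low light in Col-0 for the tested loci, with standard errors (bars). Filled points passed an adjusted p of 0.05 in edgeR, open points did not, and a locus is left out where either group held 3 counts or fewer. LSH4 passed at all 3 times, CUC1 at both SIM times, and ESR2 (up) and LAS (down) at 8 days. ESR2 was tested only through its level in high-light Col-0 at 8 days. The calls of LSH4 on CIM and of LAS were lost in several alternatives.

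The number of members called for light rose from CIM to 8 days on SIM, and the share of all genes called rose too. Of the 8 tested, 1 was called on CIM, LSH4, where 8.29% of all 20842 tested genes were called in either direction and 5.14% were higher. At 4 days on SIM 2 were called (CUC1 and LSH4, both higher) against 13.5% of genes, 9.09% higher. At 8 days, ESR2 aside, 3 of the other 7 were called, CUC1 and LSH4 higher and LAS lower, against 27.6% of genes. ESR2 was called higher too, but it was tested only through its level in this high-light group. The change of the light effect between neighbouring times was called for 0 of 8 members, and for 1.39% of genes from CIM to 4 days on SIM and 2.79% from 4 to 8 days. At unadjusted p under 0.05 these tests gave 1 member (CUC2) and 1 member (LAS), and DESeq2 called 0 in both.

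**Figure D3:**
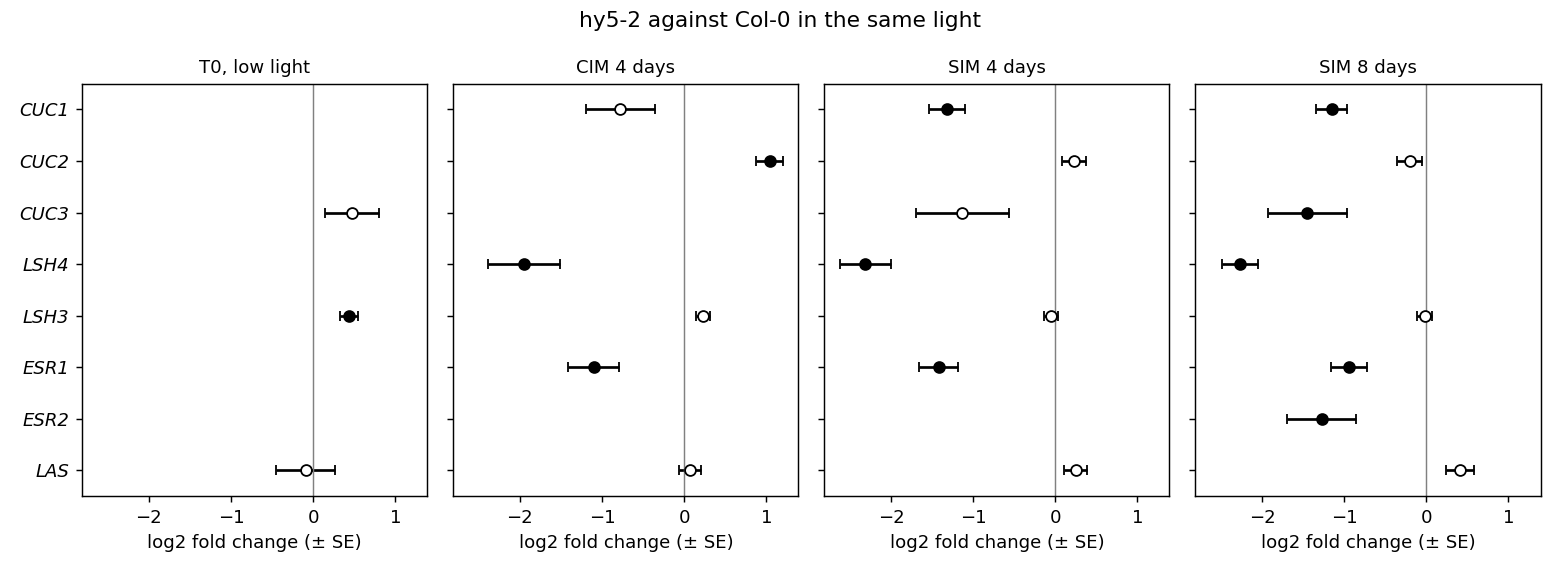
Log2 fold change of hy5-2 against Col-0 in the same light for the tested loci, with standard errors (bars), one scale for the 4 panels. Filled points passed an adjusted p of 0.05 in edgeR, open points did not, and a locus is left out where either group held 3 counts or fewer. LSH4 and ESR1 were lower in hy5-2 at each culture time, CUC1 at both SIM times, and CUC2 was higher on CIM.

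Between genotypes, 1 of the 8 was called at T0 (LSH3, higher in hy5-2), where 5.12% of genes were, 1.98% higher. On CIM 3 were called, CUC2 higher and LSH4 and ESR1 lower, against 15.5% of genes. At 4 days on SIM 3 were called, all lower in hy5-2 (CUC1, LSH4 and ESR1), against 20.4% (10% lower), and at 8 days, ESR2 aside, 4 of the other 7, all lower (CUC1, CUC3, LSH4 and ESR1), against 23.5% (13.4% lower). ESR2 was also called lower there, under the same condition. The genotype effect changed between CIM and 4 days on SIM for 1 member, CUC2, and for 7.36% of genes (3.08% in its direction), and between 4 and 8 days for 0 members (0 at unadjusted p under 0.05 and 0 in DESeq2) and 0.523% of genes. The light and genotype comparisons use the same high-light Col-0 libraries, so a member high in those libraries moves in both.

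The comparison of hy5-2 in high light with Col-0 in low light uses none of those high-light Col-0 libraries, but genotype and light both differ in it. It uses the hy5-2 libraries of the genotype tests and the low-light Col-0 libraries of the light tests again. A call repeated here is therefore no independent support. ESR1 was lower in hy5-2 at each time, by log2 fold changes of -1.38 ± 0.31 (edgeR adjusted p = 0.00369) on CIM, -1.45 ± 0.24 (adjusted p = 7.31e-05) at 4 days on SIM and -1.12 ± 0.22 (adjusted p = 0.000807) at 8 days. CUC2 was higher on CIM by 0.92 ± 0.17 (adjusted p = 0.000552) and at 4 days on SIM by 0.60 ± 0.15 (adjusted p = 0.0104), the latter lost without low-light Col-0 replicate 2 (adjusted p = 0.0726) or hy5-2 replicate 3 (0.115). These were the only calls among the 8, 2 on CIM, 2 at 4 days on SIM and 1 at 8 days, where 10.6%, 8.02% and 6.83% of genes were called (at 8 days 2.87% lower). LSH4 stood at -0.35 ± 0.58, -0.26 ± 0.39 and 0.21 ± 0.27, and CUC1 at -0.21 ± 0.49, 0.06 ± 0.25 and -0.27 ± 0.21, none of which passed. For LSH4 the interval of 2 SE either side at 8 days ran from -0.33 to 0.75, and for CUC1 from -0.69 to 0.15.

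Across the culture steps the number of members called ran from 2 to 8 of 8. From T0 to CIM in Col-0 low light 4 members were higher (CUC2, LSH3, ESR1 and LAS) and 1 lower (CUC3), where 79.1% of genes were called. LSH4 stood at 0.82 ± 0.76 (edgeR adjusted p = 0.323) and passed without T0 replicate 3 (log2 fold change 2.93, adjusted p = 0.0213). In hy5-2 the same step, with a change of light, called 5 higher (CUC1, CUC2, LSH4, ESR1 and LAS) and 1 lower (CUC3) against 80.9%. In both genotypes the CUC3 call favours T0, through which CUC3 passed the filter. In hy5-2 the calls of CUC1 and LSH4 rest on 3 and 2 T0 counts, with count ratios of 3.65 (95% counting interval 1.09 to 19.1) and 5.21 (1.27 to 46.0), and were lost when any of several single libraries was left out (adjusted p = 0.0686 to 0.217 for CUC1 and 0.133 to 0.230 for LSH4). The CUC1 call was lost in DESeq2 as well (0.0519). From CIM to 4 days on SIM 6 members were higher in Col-0 low light (CUC1, CUC2, CUC3, LSH4, LSH3 and ESR1) against 43.9% of genes (21.5% higher), and these 6 in hy5-2 against 53.1% (25.5% higher). In high-light Col-0 these 6 and ESR2 were higher and LAS lower, against 49.0% of genes.

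Some of these culture calls did not hold under every alternative. The low-light CUC3 call was lost without CIM replicate 2 (adjusted p = 0.0882) or 3 (0.121). The hy5-2 calls were lost for CUC2 without SIM replicate 3 (0.0741) and for LSH4 without CIM replicate 2 (0.0590) or 3 (0.0524). In high-light Col-0 ESR2 went from 0 to 5 counts (at least 1.55-fold higher), and its call was lost without any one CIM replicate (0.0633 to 0.0750) or SIM replicate 1 (0.0759), in DESeq2 (0.0693) and with no filter on low counts (0.0524). The LAS call there was lost without CIM replicate 3 (0.204) or SIM replicate 2 (0.182), in DESeq2 (0.0529), with no filter (0.0668) and in a fit of the compared groups alone (0.0613). The low-light LAS value passed without CIM replicate 3 (0.0353). From 4 to 8 days on SIM 2 members were called in Col-0 low light (CUC1 and LSH4, both higher) against 14.9% of genes (6.65% higher). In high light CUC1, CUC2, LSH4 and ESR2 (tested through this group alone) were higher and LAS was lower, against 22.4%, and in hy5-2 4 were higher (CUC1, LSH4, ESR1 and ESR2) and LAS was lower, against 19.8%. The ESR2 call in hy5-2 rests on 2 counts at 4 days and 18 at 8 days. ESR2 was not tested in a fit of those hy5-2 groups alone. CUC3 in high light (1.10 ± 0.42, adjusted p = 0.0593) passed without 4-day replicate 3 (0.0411). ESR1 in hy5-2 (0.78 ± 0.26, adjusted p = 0.0311) did not pass without 4-day replicate 1 (0.0864) or 3 (0.113) or 8-day replicate 2 (0.0696) or 3 (0.0953).

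Other boundary and axillary meristem regulators, 14 listed and 13 tested, were higher in high light wherever they passed for light. In Col-0 2 of 13 were higher with light on CIM, 5 at 4 days and 7 at 8 days on SIM, and 0 were lower at any of these times, beside 8.29%, 13.5% and 27.6% of all genes called. Their median log2 fold change at 8 days was 0.92, where that of all tested genes was -0.01. ATH1, a BELL homeodomain factor of the shoot apex, went from 1.77 to 15.4 CPM (log2 fold change 3.13 ± 0.28, edgeR adjusted p = 7.08e-11). RAX1, a MYB factor for axillary meristems, was higher by 1.82 ± 0.53 (adjusted p = 0.0254) on CIM and 1.45 ± 0.25 (adjusted p = 6.19e-05) at 4 days on SIM. In hy5-2 at 8 days 0 of 13 were higher and 4 lower, where 23.5% of all genes were called, among them BOP2, a boundary coactivator, by -1.82 ± 0.14 (adjusted p = 6.53e-12) and ATH1 by -1.68 ± 0.23 (adjusted p = 8.75e-07). On CIM 2 were higher in hy5-2 (SPT by 0.74 ± 0.11, adjusted p = 4.58e-06, and KNAT2) and 2 lower (BOP2 and RAX1), and at 4 days 3 were higher and 2 lower, beside 15.5% and 20.4% of all genes.

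Among 7 tested of 8 other ALOG genes, none passed for light on CIM or at 4 days on SIM, where 8.29% and 13.5% of all genes were called. At 8 days 3 of the 7 were higher, beside 27.6% of all genes called. LSH1 (log2 fold change 0.65 ± 0.13, edgeR adjusted p = 0.000325) and LSH5 (2.30 ± 0.49, adjusted p = 0.000437, from 6 to 29 counts) led them. In hy5-2 LSH2 was lower at 4 days (-1.50 ± 0.31, adjusted p = 0.000531) and at 8 days (-0.88 ± 0.21, adjusted p = 0.00192), and LSH9 was higher at 8 days (0.47 ± 0.11, adjusted p = 0.0018). Of 4 ERF relatives of ESR1 and ESR2, 3 were tested. LEP, of the same ERF subgroup as ESR1 and ESR2, was at 8 days lower with light by -1.09 ± 0.15 (adjusted p = 8.76e-07) and higher in hy5-2 by 0.96 ± 0.15 (adjusted p = 9.25e-06). It was also higher in hy5-2 on CIM (0.63 ± 0.14, adjusted p = 0.00129) and at 4 days (0.66 ± 0.14, adjusted p = 0.000583).

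Of 11 genes known to act upstream of CUC and ESR genes, 0 passed for light on CIM or at 4 days on SIM, and 5 were higher at 8 days by small amounts, where 27.6% of all genes were called, led by the auxin response factor MP (log2 fold change 0.35 ± 0.05, edgeR adjusted p = 6.11e-06). In hy5-2 2 were higher on CIM, among them PLT3 (0.42 ± 0.07, adjusted p = 3.84e-05), an AP2 factor known to act ahead of CUC2 in regeneration. This count is near the 15.5% of all genes called on CIM. At 4 days 3 were higher, beside 20.4% of all genes. At 8 days 5 were lower, beside 23.5% of all genes, led by MP (-0.34 ± 0.05, adjusted p = 1.38e-05). Of 11 listed repressors of CUC genes or LAS, 7 were tested. With light 1 was higher on CIM and 1 at 4 days, beside 8.29% and 13.5% of all genes called. At 8 days 6 of the 7 were higher with light, beside 27.6% of all genes. TCP10 (2.17 ± 0.29, adjusted p = 3.5e-07) and TCP3 (1.51 ± 0.26, adjusted p = 2.06e-05), factors of leaf differentiation, led them. In hy5-2 3 were higher and 1 lower on CIM, and 2 higher and 1 lower at 4 days, beside 15.5% and 20.4%. At 8 days 4 were lower in hy5-2 and 0 higher, beside 23.5%. Reported targets of the members numbered 6, among them the shoot apex marker STM. With light 0 were called on CIM, and at 4 days 3 were higher and GA2OX4 lower (log2 fold change -1.04 ± 0.27, edgeR adjusted p = 0.00681). In hy5-2 AHP6 and GA2OX4 were higher and OBP1 lower on CIM, and 2 were lower at 4 days. These counts stand beside 8.29%, 13.5%, 15.5% and 20.4% of all genes called, in that order. At 8 days 4 were higher with light and 4 lower in hy5-2, beside 27.6% and 23.5% of all genes. XTH9 (a cell wall enzyme) was higher with light by 1.04 ± 0.13 (adjusted p = 5.6e-07) and the ESR2 target CYCD1;1, a cyclin, was lower in hy5-2 by -0.74 ± 0.13 (adjusted p = 3.2e-05). Of the other 4 miR164-targeted NAC genes, high light at 4 days on SIM gave 0 higher and 1 lower, and at 8 days 1 higher and 2 lower. These stand beside 13.5% and 27.6% of all genes called. In hy5-2 3 of 4 were higher at 4 days and 3 of 4 at 8 days, beside 20.4% and 23.5% of all genes. ORE1, a senescence regulator, was higher by 1.39 ± 0.25 (adjusted p = 7.67e-05) in hy5-2 at 8 days.

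**Figure D4:**
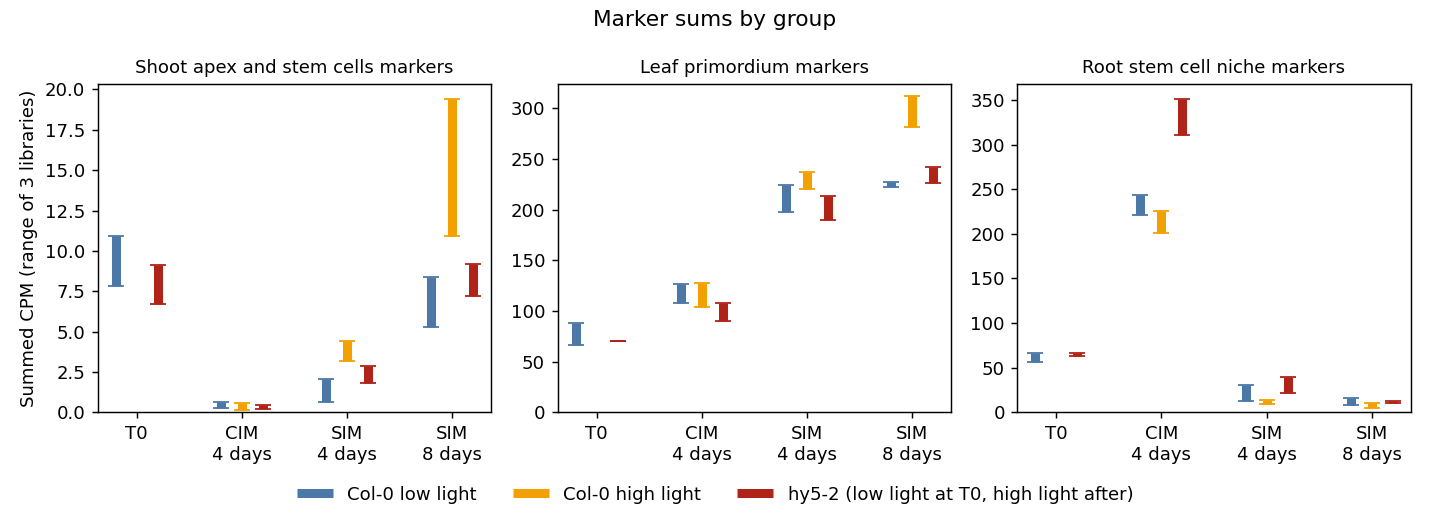
Range of the summed level (CPM, linear axis) of 3 lists of marker genes over the 3 libraries of each group, by time and medium. After 8 days on SIM the shoot apex and leaf primordium sums were highest in Col-0 high light, and the root niche sum was highest on CIM in every series, with hy5-2 above Col-0.

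Marker genes of other cell types differed between the same groups, some with the members and some against them, and their part in the results was not tested. At 8 days on SIM the summed level of the 3 shoot apex markers WUS, CLV3 and STM was 10.9 to 19.4 CPM in high-light Col-0, 5.30 to 8.37 in low light and 7.20 to 9.21 in hy5-2, with all 3 detected in each. At 4 days it was 3.18 to 4.42, 0.604 to 2.06 and 1.82 to 2.84 CPM, and on CIM at most 0.607 in any library, with WUS at 0 in all 3 CIM groups. At T0 the sum was 7.80 to 10.9 CPM in Col-0 and 6.68 to 9.13 in hy5-2, again with WUS at 0. CLV3 was also at 0 in high-light Col-0 on CIM and in hy5-2 at T0, where STM alone made up the sum. The sum of the 4 leaf primordium markers FIL, YAB3, AS1 and ANT at 8 days was 281 to 312 CPM in high-light Col-0, 222 to 227 in low light, where YAB3 was at 0, and 226 to 242 in hy5-2. The sum of the 4 root stem cell niche markers on CIM was 311 to 351 CPM in hy5-2, where CUC2 was high, against 201 to 225 in high-light and 221 to 243 in low-light Col-0. The 3 photosynthesis markers at 8 days summed to 489 to 553 CPM in high-light Col-0, 46.4 to 68.9 in low light and 17.7 to 31.2 in hy5-2, and T0 stood at 2070 to 4400. The 4 xylem markers at 8 days gave 236 to 264, 112 to 136 and 158 to 211 CPM, and the 3 epidermis markers 19.0 to 32.5, 12.7 to 15.1 and 14.2 to 16.3 CPM, in the same order. At 4 days on SIM, where CUC1 and LSH4 were called for light, so were 13.5% of all genes. Of the markers, 2 of 3 for shoot apex and 3 of 3 for photosynthesis were higher with light, and 2 of 4 for root niche lower. Of the leaf primordium, xylem and epidermis markers 0 were called, and FIL held 0 counts in both Col-0 groups of that time. From CIM to 4 days on SIM, where most members rose, all 4 root niche and all 3 epidermis markers fell in every series, while all 4 xylem markers rose. The epidermis sum went from 332 to 412 CPM on CIM in high-light Col-0 to 24.3 to 34.3 at 4 days on SIM, and the root niche sum from 201 to 225 CPM to 9.54 to 14.2. From 4 to 8 days 4 xylem markers were lower in Col-0 low light and 3 in each of the other series.

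Over the 11 group means of log2 CPM, the members fell into different courses, given here as a description since all points share the same libraries and the times in culture. CUC1 ran closest to LSH4 (r = 0.95), CUC2 to ESR1 (r = 0.91) and LAS (r = 0.89), and CUC3 ran against LAS (r = -0.90). Among all other genes with a mean of at least 1 CPM, the courses most like CUC1 were those of GATA1, a zinc finger factor (r = 0.987), and AT3G56760 (r = 0.984). Those most like CUC2 were HSFB4, a class B heat shock factor (r = 0.997), and AT2G23820 (r = 0.997), and for LSH4 they were AT3G25030 (r = 0.985) and MIPS2, a myo-inositol phosphate synthase (r = 0.972). ESR1 ran with AT4G24860 (r = 0.993) and FXG1 (r = 0.991), LAS with AT1G04900 (r = 0.993) and MAA3 (r = 0.992), and CUC3 with AT4G35270 (r = 0.988) and AT5G67150 (r = 0.987). LSH3 ran with AT2G29510 (r = 0.979) and AT1G62870 (r = 0.977), and ESR2, at 0 in 5 of the 11 groups, with AT4G29920 (r = 0.976) and AT1G32010 (r = 0.957).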

How the data were processed

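Strand-specific mRNA libraries (KAPA kit, per the labels' protocols) from 33 explant samples were counted per locus by the authors. The deposited values are raw counts, whole numbers for 33400 loci with coordinates of build TAIR10. Of tools, STAR, SAMtools, bedtools and edgeR appear in the submitters' processing notes. Whether counting used strand, and how multi-mapping reads were handled, is not given here, and no member overlaps another listed locus. Columns outside the 33 samples numbered 0.

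Counts were analysed with edgeR 4.0.16 in R 4.3.3, with TMM scaling (factors 0.843 to 1.06), filterByExpr (count minimum 10, total 15) leaving 20842 genes, 1 fit over all 11 groups and quasi-likelihood tests of 22 contrasts, with Benjamini-Hochberg adjustment over all genes and a threshold of 0.05. Common biological variation was 0.0745. Levels are CPM on TMM-scaled library sizes. The SE of a log2 fold change is its size divided by the root of the F statistic. Where a group held 0 counts, a fold is a bound against a floor of 3 counts over the group, and where it held 1 to 3, a count ratio with an exact 95% interval. Such floors and intervals cover counting error only. Replicates are called biological replicates in the series' text, and no pair of libraries agreed within sampling noise (lowest chi-square per degree of freedom 2.03). The steps were tested on simulated data. Genes of low mean level were not among those changed there, so the simulation does not cover loci near the floor such as ESR2 and CUC3.

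Levels per kilobase use RefSeq exon bases inside each counted interval. Sequences were read from RefSeq assembly TAIR10.1, in which all 10 coding models of the 9 loci began with a start and ended with a stop codon. The members and lists were chosen with earlier results of these data known. Named genes are the 9 members, up to 2 genes per list, contrast and direction with the smallest adjusted p, the 2 genes most correlated with each tested member over 11 group means, and HY5. Further genes of a list are counted only.

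Replicate numbers are shared by all groups. In 18 pairs of groups the correlations of same-numbered libraries' deviations from their group means ran from -0.061 to 0.376, and in 7 of these pairs all were at least 0.1, which was taken as pairing: low-light SIM day 4 with CIM and with SIM day 8, light at SIM day 4, genotype at T0, CIM and SIM day 4, and hy5-2 against low-light Col-0 at SIM day 4. Alternatives were DESeq2-type scaling in edgeR, no filter, DESeq2 1.42.0, a replicate block, a fit of the compared groups alone and each replicate left out.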

Additional observations from a re-analysis of the deposited data

Results flagged for a closer look

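The CUC2 genotype effect (hy5-2 against Col-0 in high light) stood out because it differed between media by the test of the difference itself, -0.82 ± 0.22 on the log2 scale (edgeR adjusted p = 0.0197). It was 1.04 on CIM and 0.23 after 4 days on SIM, and the difference was negative in all 17 alternatives, with adjusted p from 0.0063 to 0.073. The alternatives refit the same libraries, so the shared sign is no independent support, and several of them lost the call.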

How the results depend on the processing

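No result reversed. DESeq2-type scaling changed the call of 0 of 176 member tests. The replicate block changed 2, both for CUC2: low light from 4 to 8 days on SIM (adjusted p = 0.0199) and light at 8 days (adjusted p = 0.0251, in a pair of groups not taken as paired). With the block, genes called for the change of the light effect were 520 (CIM to 4 days on SIM) and 930 (4 to 8 days) against 289 and 581, and for that of the genotype effect from 4 to 8 days 269 against 109, where DESeq2 called 241. Fits of the compared groups alone tested 125 of the 176, since fewer loci passed the filter there. They called 5 members for CIM to 4 days on SIM in high light (of 8, with CUC3 and ESR2 not tested and LAS lost), 3 for T0 to CIM in hy5-2 (of 6, with CUC1, LSH4 and ESR1 not tested), 3 for genotype at 8 days (of 5, with CUC3 not tested and ESR2 lost, and also 3 in DESeq2), 0 for genotype at T0 and 0 for the change of the genotype effect from CIM to SIM. They called 3066 genes from 4 to 8 days in high light against 4673 and 308 for the change of the light effect from 4 to 8 days. The cause of calls lost in loci that were tested was not tested. Leaving out 1 replicate gave 0 to 1 members for genotype at T0, for light on CIM and for the change of the genotype effect from CIM to SIM, 3 to 5 for genotype at 8 days and 1 to 2 for hy5-2 against low-light Col-0 at 4 days. Gene counts then ran from 384 to 1726 for genotype at T0, 1971 to 3102 on CIM, 1166 to 1910 and 944 to 1136 for hy5-2 against low-light Col-0 on CIM and at 8 days, 149 to 322 and 379 to 634 for the changes of the light effect, and 39 to 169 for that of the genotype effect from 4 to 8 days. In all, 49 of 1248 member tests lost and 4 gained a call with 1 replicate left out. ESR2, CUC3 and LOF1 are limited by depth.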
